A study of Mus musculus with 6 samples.

Results

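The Wnt ligands, receptors, antagonists and core transducers were followed as a family of 53 genes in CD31 fractions meant to hold tumor endothelial cells. Its members were chosen by symbol (the Wnt, Fzd, Dkk and Sfrp families, Lrp5, Lrp6, Ror1, Ror2, Ryk, Dvl1 to Dvl3, Ctnnb1, Axin1, Axin2, Apc, Lef1, Tcf7, Tcf7l1 and Tcf7l2) out of 23473 rows that carry RefSeq gene names, and each of the 53 was found. Cells were captured on beads coated with anti-CD31 from Lewis lung carcinoma (LLC) tumors, a transplanted mouse lung cancer. In every library the median of the listed macrophage genes was above that of the listed endothelial genes. The levels are thus those of a mixed fraction. The hosts were C57BL/6 mice with a labelled age of 8 weeks. The 3 NICeCA mice carried Cdh5-Cre-ERT2 and a Rosa26 allele that releases the Notch1 intracellular domain (NIC) once Cre removes a stop cassette, so that tamoxifen switches Notch signaling on in cells that use the Cdh5 promoter. The 3 Ctrl mice are labelled wild type, and no source used here says whether they too received tamoxifen. The study's methods name 3 pairs of mice and 1 day of tumor collection, while the labels speak of different days without tying them to libraries, and p-values measure the spread between these libraries. Ribosomal RNA was removed from the total RNA. Levels are given in RPKM, the reads on a gene model divided by its length and by the total of the library.

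Wnt proteins are secreted, lipid-modified ligands that bind Frizzled (Fzd) receptors together with the co-receptors Lrp5 and Lrp6. The signal passes through Dishevelled (Dvl) proteins to a complex of Axin, Apc and kinases that otherwise destroys beta-catenin (Ctnnb1), and stabilized beta-catenin then works with TCF/LEF factors on target genes such as Axin2. A second branch needs no beta-catenin and uses receptors such as Ror1, Ror2 and Ryk. Dkk proteins block the co-receptors, and Sfrp proteins bind the ligands. In endothelium, beta-catenin signaling is best known for building and keeping the blood-brain barrier.

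Of the 21 members with a mean of at least 1 RPKM, which were tested, 5 passed the test between the groups. Over all rows tested, 13.6% did. Wnt11 and Fzd1 were higher in NICeCA libraries, and Dkk2, Dvl1 and Dvl3 were lower. Wnt11 met the minimum of 1 RPKM only through its NICeCA level. Without this minimum none of the 5 was called (limma adjusted p of 0.060 to 0.092, with 0.069 for Wnt11). Of the 5, the Wnt11 gene is shown with the sequence before its transcription start. It is the ligand with the highest level in NICeCA libraries and has 2 annotated starts. Both windows run from 250 bases before to 50 bases after a start (RefSeq, GRCm38.p6, plus strand). Capitals mark a match on either strand to CTTTGNT, a looser form of the TCF/LEF core CTTTGAT or CTTTGTT.
Wnt11, upstream start, chr7:98834862-98835161: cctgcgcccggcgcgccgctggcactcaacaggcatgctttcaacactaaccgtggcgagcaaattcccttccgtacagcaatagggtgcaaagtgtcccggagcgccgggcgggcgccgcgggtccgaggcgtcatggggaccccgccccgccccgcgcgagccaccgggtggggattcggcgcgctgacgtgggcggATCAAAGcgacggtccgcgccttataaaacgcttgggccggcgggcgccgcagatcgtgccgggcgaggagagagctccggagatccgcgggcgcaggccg
Wnt11, downstream start, chr7:98838595-98838894: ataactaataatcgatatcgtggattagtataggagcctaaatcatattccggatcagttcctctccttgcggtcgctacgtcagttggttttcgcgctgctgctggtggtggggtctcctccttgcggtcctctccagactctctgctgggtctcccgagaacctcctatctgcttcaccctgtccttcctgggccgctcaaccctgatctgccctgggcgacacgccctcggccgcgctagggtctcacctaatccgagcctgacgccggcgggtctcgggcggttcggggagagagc

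The upstream window holds 1 match on the reverse strand, from 51 bases before the start, and the downstream window, where the measured gene model begins, holds none. Among 27025 promoters of the same length, 18.6% hold CTTTGNT and 6.4% hold GTGGGAA, the core bound by the Notch partner RBPJ (both strands). Of the 37 members with an entry, 6 hold CTTTGNT and 3 hold GTGGGAA in their first listed window. The CTTTGNT matches of Wnt9b and Wnt1 read CTTTGCT, which is neither CTTTGAT nor CTTTGTT. Neither core was found in the windows of Fzd1, Dkk2, Dvl1 and Dvl3. A match of this kind is a description of letters and not a bound site.

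Before the results, the makeup of the libraries was read from marker lists. All 20 listed endothelial genes were present in each library, with Cd93 the most abundant, and their summed level was 897, 365 and 478 RPKM in Ctrl replicates 1 to 3 and 805, 1000.95 and 952 RPKM in NICeCA replicates 1 to 3. Ctrl replicates 2 and 3 thus lay below the other 4 libraries. The 12 macrophage genes summed to 9452, 6757 and 6542 RPKM in Ctrl and 8320, 7554 and 4483 RPKM in NICeCA libraries, led by Lyz2, and in every library the median macrophage gene was higher than the median endothelial gene, by 1.77 to 3.11 on the log2(RPKM + 1) scale. CD31 is also found on leukocytes. Neutrophil genes (11 of 12 listed, led by S100a9) summed to 128, 212 and 287 RPKM in Ctrl and 670, 929 and 1762 RPKM in NICeCA libraries, and 8 of the 9 tested were higher in NICeCA (among them Ngp, which reached the filter only through its NICeCA level), where 5.88% of all rows tested were called higher and 7.68% lower. In the endothelial and macrophage lists 3 of 20 and 3 of 12 genes were called, all higher.

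Fibroblast genes (12, led by Col3a1) summed to 416, 681 and 483 RPKM in Ctrl and 260, 208 and 393 RPKM in NICeCA libraries. Of the 11 tested, 4 were lower and 1 was higher, where 7.68% of all rows were called lower and 5.88% higher. The sum was carried by Col3a1 (a mean of 341 RPKM in Ctrl and 160 RPKM in NICeCA). Genes of pericytes and smooth muscle (12, led by Rgs5) summed to 51.2, 40.2 and 59.1 RPKM against 100.7, 83.0 and 155 RPKM, with 3 of 10 tested higher. T cell genes (11 of 12 listed, led by Il7r) summed to 93.95, 47.4 and 107 RPKM against 88.8, 129 and 126 RPKM. Of the 11 tested, 1 was called, Il7r, which was higher and took the largest share of each NICeCA sum, and 7 had negative estimates. The sums of the 10 carcinoma genes, led by Cdh1, lay between 6.91 and 13.3 RPKM, with 1 of 2 tested lower. These are epithelial markers whose level in LLC cells was not measured here, so the sums do not give the share of tumor cells. Cldn4 or Krt19 of the carcinoma genes was at 0 in 3 libraries, and no other marker in the table was. In a bulk sample, fewer cells of a type and less RNA per cell cannot be told apart, and the part of these cells in the differences given here was not tested.

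**Figure D1:**
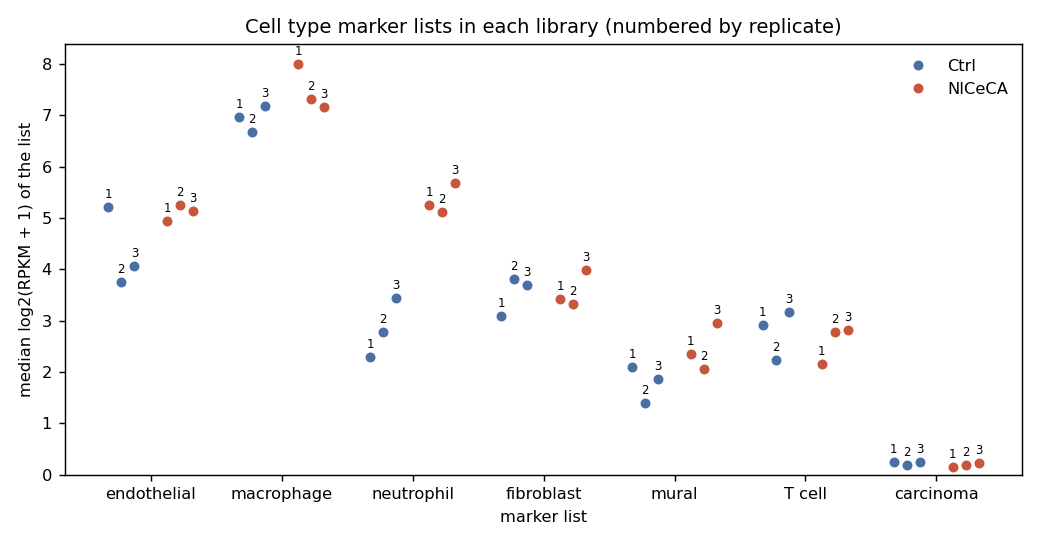
Median log2(RPKM + 1) of each cell type marker list (y axis) in the 3 Ctrl (blue) and 3 NICeCA (red) libraries, numbered by replicate. The macrophage list lies above the endothelial list in every library, and the neutrophil list of every NICeCA library lies above that of every Ctrl library.

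Notch1, whose intracellular part the transgene encodes, had 14.3, 8.19 and 13.8 RPKM in Ctrl and 12.3, 13.6 and 12.6 RPKM in NICeCA libraries (log2 fold change 0.11 with a standard error of 0.20, limma adjusted p = 0.71). The ranges overlap. The value covers the whole gene model and not only the part in the transgene, so this level alone does not check the labels. The cause of the flat level was not tested.

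The levels of the family spread widely by class. Beta-catenin itself was by far the most abundant member with a mean over the 6 libraries of 120 RPKM, followed by Dvl1 (22.6), Dkk2 (21.8) and Axin1 (16.2). The 10 Frizzled receptors ranged from 0.021 RPKM (Fzd3) to 8.82 RPKM (Fzd1), and the co-receptors Lrp6 and Lrp5 lay at 9.86 and 7.88 RPKM. The ligands were low. Of 19 Wnt genes, 18 had a mean under 1 RPKM, and Wnt11 had 2.77 RPKM through its NICeCA level. In Ctrl libraries the means of Wnt7b (1.12 RPKM), Wnt2b (0.984 RPKM), Wnt11 (0.968 RPKM) and Wnt6 (0.937 RPKM) lay within their SDs of each other. In all, 21 members had a mean of at least 1 RPKM over the 6 libraries and were tested, and 32 were not. In 20 of the 21, both group means reached 1 RPKM. Wnt11 reached the filter through its NICeCA level.

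**Figure D2:**
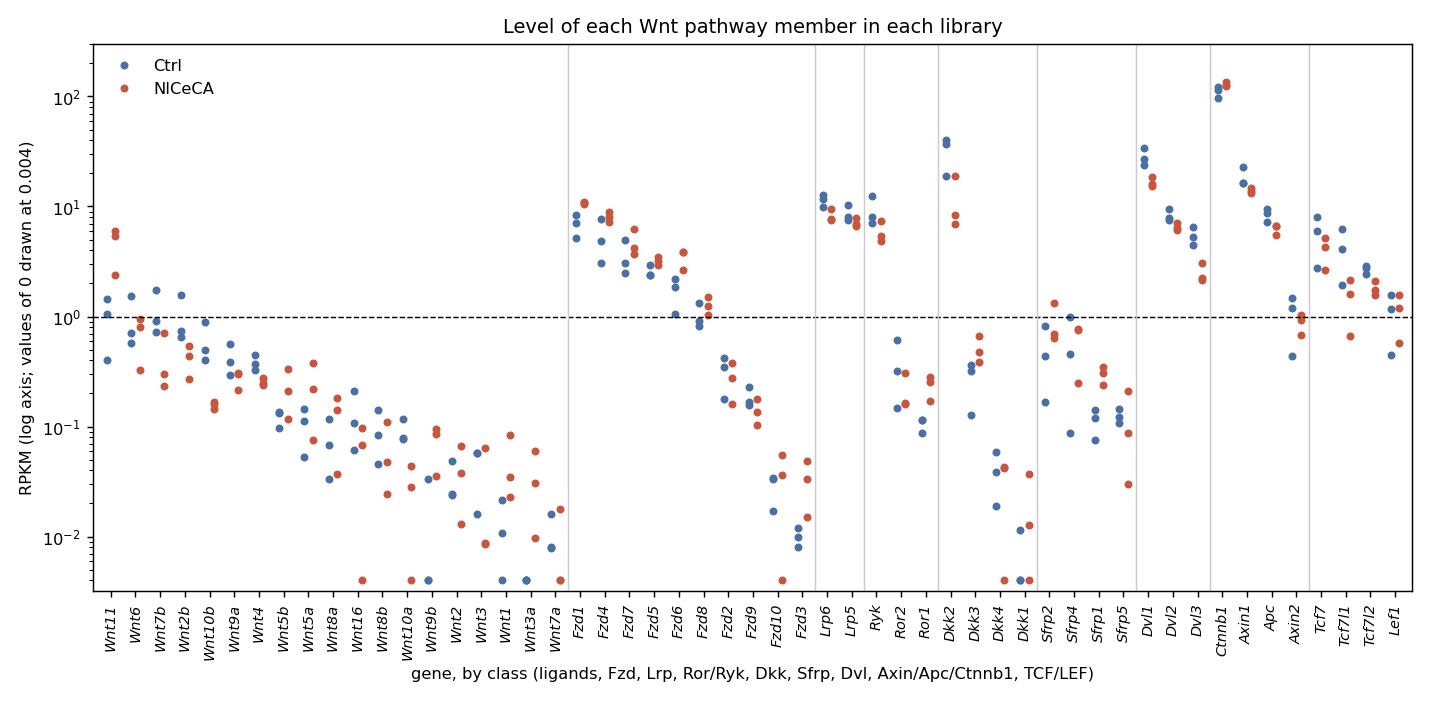
RPKM of all 53 members (log y axis, values of 0 drawn at 0.004) in each Ctrl (blue) and NICeCA (red) library, ordered by class and mean, with the filter of 1 RPKM as a dashed line. The points of 18 of 19 Wnt ligands lie around or under the line, while Ctnnb1 lies near 120 RPKM.

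The comparison asks which members differ between the CD31 fractions of NICeCA and Ctrl mice. The limma p-values were adjusted over all 12320 rows tested. At an adjusted p under 0.05, 2 of the 21 tested members were higher and 3 were lower in NICeCA libraries. This was 23.8% of the 21, where 13.6% of all rows were called (5.88% higher and 7.68% lower). Without Wnt11, for which the filter had a part, 4 of 20 were called. The groups did not overlap in 12 of the 21 tested members, where 40.9% of all rows did not, with 5 higher (all rows 16.5%) and 7 lower (all rows 24.4%). The median log2 fold change was -0.30 over the tested members and -0.05 over all rows. None of the 5 calls held in all 6 fits that left out 1 library, although no log2 fold change of these 5 genes changed sign in them.

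**Figure D3:**
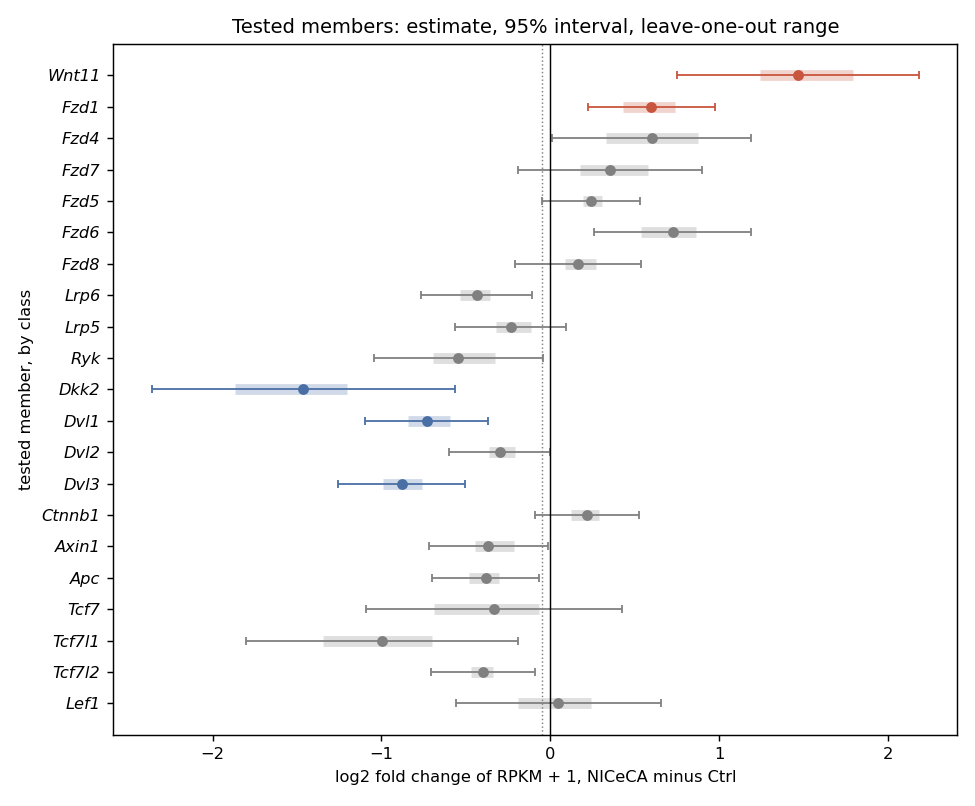
Log2 fold change of RPKM + 1, NICeCA minus Ctrl (x axis), of the 21 tested members by class, with 95% intervals from limma (thin bars), the range over the fits that left out 1 library (wide bars) and the median of all rows (dotted). The 6 Frizzled genes lie right of 0 and the 3 Dvl genes left of it. Red marks genes called higher and blue genes called lower.

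Among the ligands, Wnt11 was called higher, but it entered the test only through its NICeCA level. With no filter on low values it was not called (limma adjusted p = 0.069), and neither was any other member. Wnt11 belongs to the ligands best known for signaling without beta-catenin. Its level was 1.06, 0.405 and 1.44 RPKM in Ctrl replicates 1 to 3 and 5.35, 5.98 and 2.38 RPKM in NICeCA replicates 1 to 3, which rested on 45 to 157 and 247 to 589 reads. Every NICeCA library lay above every Ctrl library, and NICeCA replicate 3 was the closest to the Ctrl range. The means were 0.968 ± 0.525 and 4.57 ± 1.92 RPKM (SD, n = 3 each), a ratio of 4.72. On the log2(RPKM + 1) scale, which understates low genes, the fold change was 1.47 (standard error 0.31, 95% interval 0.75 to 2.19, limma adjusted p = 0.032). The exact permutation test gave p = 0.1, the smallest two-sided value that its 20 assignments allow. The limma adjusted p was 0.051 without Ctrl replicate 1, 0.068 without Ctrl replicate 2, 0.122 without NICeCA replicate 1, 0.129 without NICeCA replicate 2 and 0.054 with a replicate block. The row lies on chromosome 7 (98838845 to 98854747, GRCm38) and overlaps the pseudogene Gm8398 on the other strand.

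The other 18 ligands stayed under the filter. Over all 32 untested members the groups did not overlap in 7 that were higher and 5 that were lower in NICeCA (21.9% and 15.6%), where 12.2% and 7.15% of all rows with reads and a mean under 1 RPKM did so. All 5 lower ones were ligands: Wnt7b, Wnt2b, Wnt10b, Wnt4 and Wnt10a. Wnt10b, a ligand of the beta-catenin branch, had 43, 79 and 35 reads in Ctrl and 13, 13 and 12 reads in NICeCA libraries (0.596 ± 0.259 and 0.157 ± 0.011 RPKM, SD, n = 3 each). Wnt7b, which neural cells send to brain endothelium for the barrier, had 124, 305 and 157 reads in Ctrl and 38, 47 and 117 reads in NICeCA libraries. Wnt2b had 90, 223 and 103 reads in Ctrl and 35, 55 and 72 reads in NICeCA libraries. In all 3, the Ctrl libraries were above the NICeCA libraries, with Ctrl replicate 2 the highest.

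The 7 untested members with higher NICeCA libraries were Wnt1, Wnt3a, Wnt9b, Fzd3, Dkk3, Sfrp1 and Ror1. Wnt3a, a classic ligand of beta-catenin signaling, had 0 reads in every Ctrl library, which allows up to 0.028, 0.027 and 0.028 RPKM (3 reads per library, counting error only), and 6, 3 and 1 reads in NICeCA libraries. With no filter on low values, when limma was fitted to every row with reads, the lowest adjusted p of an untested member were 0.060 for Sfrp1, 0.073 for Wnt10b and 0.083 for Ror1, so that none was called. Wnt7b and Wnt2b had adjusted p of 0.14 and 0.17 in that fit. Fewer than 10 reads in every library were found for 9 of the 32 untested members. Among them were Wnt10a, Wnt1 and Wnt3a, so that the separation of the groups in these 3 rests on a few reads. Wnt9b had 6 reads in both Ctrl replicate 2 and NICeCA replicate 3, and Dkk3 had 48 in Ctrl replicate 1 and 46 in NICeCA replicate 2. These 2 genes were separated in RPKM but not in reads. Fzd3 had 6 reads in Ctrl replicate 3 and 7 in NICeCA replicate 1.

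Of the receptors, Fzd1 rose. It had 7.07, 5.17 and 8.40 RPKM in Ctrl and 10.9, 10.5 and 10.8 RPKM in NICeCA libraries. The 3 NICeCA libraries lay close together and above all Ctrl libraries, of which replicate 2 was the lowest. The means were 6.88 ± 1.63 and 10.8 ± 0.187 RPKM (SD, n = 3 each), with a log2 fold change of 0.60 (standard error 0.16, 95% interval 0.22 to 0.98, limma adjusted p = 0.049). This is just inside the threshold. The call was kept without Ctrl replicate 3 (0.029) and was lost without any other library, with adjusted p of 0.073 and 0.095 without Ctrl replicates 1 and 2 and 0.151, 0.164 and 0.087 without NICeCA replicates 1, 2 and 3. With a replicate block it was 0.078, with no filter 0.090, and with a pseudocount of 0.1, quantile normalization or no mean-variance trend 0.0513, 0.0501 and 0.0518. The gene is on chromosome 5 (4753839 to 4758216).

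Fzd6, a receptor best known from planar cell polarity, was just outside the threshold. Its level was 1.06, 2.17 and 1.87 RPKM in Ctrl and 2.64, 3.83 and 3.82 RPKM in NICeCA libraries, without overlap. The log2 fold change was 0.72 (standard error 0.20, 95% interval 0.26 to 1.19, limma adjusted p = 0.051). Adjusted p was under 0.05 with trimmed mean scaling (0.046), quantile normalization (0.045), voom (0.047), no mean-variance trend (0.0498) and a removed trend with gene length (0.048). It was over 0.05 with a pseudocount of 0.1 (0.056), a replicate block (0.0502), no filter (0.103) and in all 6 fits that left out 1 library (0.065 to 0.184).

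Fzd4, the receptor for Wnt ligands and Norrin in retinal endothelium, had 7.75, 3.09 and 4.91 RPKM in Ctrl and 7.23, 8.97 and 7.96 RPKM in NICeCA libraries. Ctrl replicate 1 lay within the NICeCA range, as it did for the endothelial marker sum given above, and the part of that sum was not tested. The log2 fold change of 0.60 was not called (95% interval 0.01 to 1.19, limma adjusted p = 0.13), but without Ctrl replicate 1 it was 0.88 with an adjusted p of 0.044. Fzd7, Fzd5 and Fzd8 did not pass the test at log2 fold changes of 0.36, 0.24 and 0.16, with 95% intervals from -0.19 to 0.90, from -0.05 to 0.53 and from -0.21 to 0.54. Fzd5 reached an adjusted p of 0.042 once the trend with gene length was removed. All 6 tested Frizzled genes thus had a positive estimate, as did 44.7% of all rows, and the estimates kept that sign without any 1 library. All 20 endothelial markers had positive estimates too, with a median log2 fold change of 0.66 against 0.48 for the Frizzled genes, and their part was not tested. Summed over the 10 Frizzled genes, the level was 22.6, 17.4 and 24.4 RPKM in Ctrl and 31.5, 31.8 and 32.3 RPKM in NICeCA libraries.

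The co-receptors did not pass the test. Lrp6 had 11.8, 9.87 and 12.8 RPKM in Ctrl and 9.42, 7.64 and 7.61 RPKM in NICeCA libraries, which did not overlap. Its log2 fold change was -0.44 (standard error 0.14, 95% interval -0.76 to -0.11, limma adjusted p = 0.073), and Lrp5 had -0.23 (adjusted p = 0.27). Lrp6 has a long gene model of 9366 bases. Over all tested rows, the median log2 fold change went from 0.09 for models of up to 2000 bases to -0.36 for those over 8000 bases, and with the trend on length removed in each library the value of Lrp6 was -0.10 (adjusted p = 0.65). Ryk, a Wnt receptor related to kinases, had 7.06, 12.4 and 8.01 RPKM in Ctrl and 4.87, 5.38 and 7.36 RPKM in NICeCA libraries, with an overlap between the groups (log2 fold change -0.54, limma adjusted p = 0.12). Ror1 and Ror2 stayed under the filter.

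**Figure D4:**
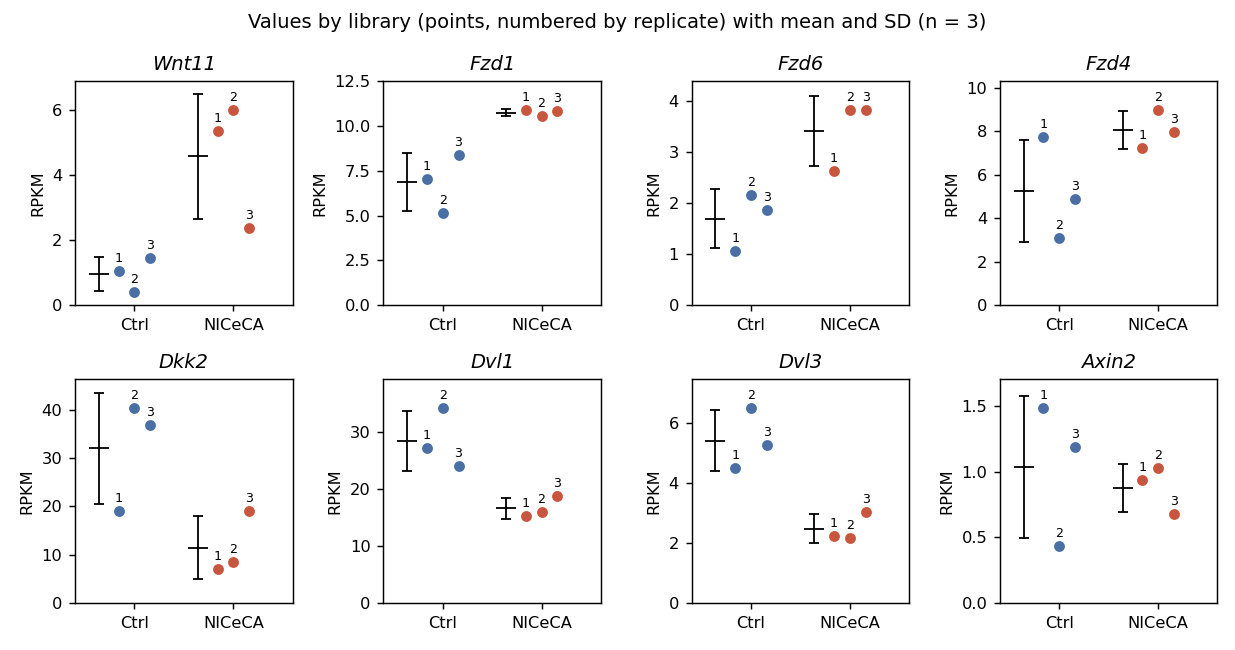
RPKM by library for the 5 called members and for Fzd6, Fzd4 and Axin2 (y axes start at 0), with points numbered by replicate and the mean and SD of each group (n = 3) beside them. Wnt11, Fzd1, Fzd6, Dvl1 and Dvl3 show no overlap between Ctrl and NICeCA. For Dkk2, Ctrl replicate 1 and NICeCA replicate 3 meet at 19.0 RPKM.

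Of the antagonists, Dkk2 fell. Dkk2 binds Lrp5 and Lrp6 and, depending on partners, blocks or weakly raises beta-catenin signaling. It had 19.0, 40.4 and 36.9 RPKM in Ctrl and 6.94, 8.39 and 19.0 RPKM in NICeCA libraries. The groups met at 1 point, since Ctrl replicate 1 (18.973 RPKM) and NICeCA replicate 3 (18.975 RPKM) had nearly the same value. The means were 32.1 ± 11.5 and 11.4 ± 6.57 RPKM (SD, n = 3 each), and the log2 fold change was -1.46 (standard error 0.39, 95% interval -2.36 to -0.57, limma adjusted p = 0.046). The exact permutation test gave p = 0.2. Adjusted p was 0.029 with a replicate block, 0.0505 with trimmed mean scaling, 0.058 with quantile normalization, 0.092 with no filter and 0.073 with the length trend removed. Without Ctrl replicates 2 and 3 and NICeCA replicates 1 and 2 it was 0.112, 0.092, 0.155 and 0.165. Of the fibroblast genes, Col3a1, Dpt, Lum and Pdgfra were also lower in NICeCA libraries, while Postn was higher, 5 of the 11 tested had positive and 6 negative estimates, and the medians of the list overlapped (3.09 to 3.82 in Ctrl and 3.33 to 3.98 in NICeCA libraries on the log2(RPKM + 1) scale). Their part in the change of Dkk2 was not tested. The gene is on chromosome 3 (132085292 to 132180304).

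The other antagonists were scarce. Dkk1 and Dkk4 had at most 3 reads in a library, and Dkk3 had 17 to 81. Sfrp2 was the most abundant Sfrp gene, with 0.166, 0.816 and 0.436 RPKM in Ctrl and 0.698, 0.637 and 1.33 RPKM in NICeCA libraries, which overlap. Sfrp1 had 13, 21 and 24 reads in Ctrl and 38, 47 and 56 reads in NICeCA libraries, which do not.

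Among the transducers, Dvl1 and Dvl3 fell. Dishevelled proteins link Frizzled receptors to both branches of the pathway. Dvl3 had 4.49, 6.51 and 5.26 RPKM in Ctrl and 2.24, 2.17 and 3.04 RPKM in NICeCA libraries, so that each NICeCA library was below each Ctrl library. The means were 5.42 ± 1.02 and 2.48 ± 0.483 RPKM (SD, n = 3 each), and the log2 fold change was -0.88 (standard error 0.16, 95% interval -1.26 to -0.50, limma adjusted p = 0.024). The call was kept with a replicate block (0.043) and in 3 of 6 fits with a library left out, and it was lost with no filter (0.060), without Ctrl replicate 2 (0.051) and without NICeCA replicates 1 and 2 (0.103 and 0.110). The row is on chromosome 16 (20517064 to 20532187) and overlaps the antisense gene Gm16618.

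Dvl1 had 27.2, 34.3 and 24.0 RPKM in Ctrl and 15.2, 15.9 and 18.7 RPKM in NICeCA libraries, without overlap. Its means were 28.5 ± 5.25 and 16.6 ± 1.84 RPKM (SD, n = 3 each), and the log2 fold change was -0.73 (standard error 0.16, 95% interval -1.10 to -0.37, limma adjusted p = 0.033). Adjusted p was 0.066 with a replicate block, 0.061 with no filter and 0.057 with the length trend removed. It was 0.052 and 0.068 without Ctrl replicates 1 and 2 and 0.123 and 0.139 without NICeCA replicates 1 and 2. The row lies on chromosome 4 (155847412 to 155859303) and overlaps Tas1r3 on the other strand, which had 2.27, 3.32 and 1.56 RPKM in Ctrl and 0.811, 0.871 and 1.19 RPKM in NICeCA libraries. Dvl2 had a log2 fold change of -0.30 and was not called (95% interval -0.60 to -0.0025, adjusted p = 0.14). Its Ctrl libraries, at 7.47 to 9.45 RPKM, were all above its NICeCA libraries, at 6.06 to 7.12 RPKM. Summed over the 3 Dvl genes, the level was 39.6, 50.2 and 36.7 RPKM in Ctrl and 24.6, 24.1 and 28.1 RPKM in NICeCA libraries.

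Beta-catenin was not called. Ctnnb1 had 123, 96.9 and 114 RPKM in Ctrl and 128, 123 and 134 RPKM in NICeCA libraries, all NICeCA values being higher. The log2 fold change of 0.22 had a 95% interval from -0.09 to 0.53 (limma adjusted p = 0.28), and with quantile normalization it was -0.14. Axin1 and Apc, scaffolds of the destruction complex, had log2 fold changes of -0.37 (adjusted p = 0.13) and -0.38 (adjusted p = 0.091), and their groups did not overlap. Apc has a gene model of 12449 bases, and with the length trend removed its value was 0.04.

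Axin2, the target gene most often read as a gauge of beta-catenin signaling, was under the filter with a mean of 0.957 RPKM. It had 1.49, 0.436 and 1.19 RPKM in Ctrl and 0.933, 1.02 and 0.675 RPKM in NICeCA libraries, at 74 to 247 reads each. The NICeCA values lay inside the Ctrl range.

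The 4 TCF/LEF factors were not called. Tcf7, the most abundant, had 5.97, 2.78 and 8.00 RPKM in Ctrl and 2.62, 4.32 and 5.16 RPKM in NICeCA libraries (log2 fold change -0.33, limma adjusted p = 0.49). Lef1 had 1.17, 0.450 and 1.57 RPKM in Ctrl and 0.580, 1.20 and 1.57 RPKM in NICeCA libraries (log2 fold change 0.05, 95% interval -0.56 to 0.65, adjusted p = 0.91). Both genes are also used by T cells and stand in that marker list, whose sum was lowest in Ctrl replicate 2 and NICeCA replicate 1, the libraries in which Tcf7 and Lef1 were lowest within each group. Their part was not tested. Tcf7l1, which mostly acts as a repressor, had 4.09, 6.21 and 1.94 RPKM in Ctrl and 0.659, 1.61 and 2.14 RPKM in NICeCA libraries, with a log2 fold change of -0.997 (95% interval -1.81 to -0.19, adjusted p = 0.088). Without Ctrl replicate 3 it was -1.34 with an adjusted p of 0.035. Tcf7l2 had a log2 fold change of -0.40 (adjusted p = 0.078), with groups that did not overlap.

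The rest of the pathway was read from lists written from general knowledge, and all log2 values that follow in brackets are fold changes of NICeCA over Ctrl. Of 27 genes for ligand processing and further modulators at the cell surface, 6 were tested, 0 were higher and 3 were lower, with a median log2 fold change of -0.57 against -0.05 for all rows, of which 7.68% were called lower. With the length trend removed, with a replicate block or with no filter, 0 were lower, and with quantile normalization 1 was. The 3 were Gpr124 (-0.99), a partner of Wnt7 signals in brain endothelium, Znrf3 (-0.68), a ubiquitin ligase that removes Frizzled receptors, and Kremen1 (-0.46), a Dkk receptor. Gpr124 had 15.2, 25.1 and 14.8 RPKM in Ctrl and 7.38, 7.22 and 11.3 RPKM in NICeCA libraries, without overlap (limma adjusted p = 0.039). Wls, the carrier of Wnt ligands and the most abundant gene of the list, had -0.34 (adjusted p = 0.13), and Tspan12, a partner of Fzd4, had 0.85 (adjusted p = 0.061).

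Of 26 genes of the destruction complex and the nuclear partners of beta-catenin, 25 were tested, 0 were higher and 6 were lower (all rows 7.68%, median log2 fold change -0.20). The number lower was 0 with the length trend removed or with no filter, and 2 with a replicate block or with quantile normalization. The 6 were Bcl9l (-1.37), Bcl9 (-0.94) and Pygo2 (-0.50), which join beta-catenin in the nucleus, the co-repressor Tle2 (-1.02), which reached the filter only through its Ctrl level (means of 2.73 and 0.774 RPKM), the co-activator Crebbp (-0.70) and the scaffold Amer1 (-0.69). Bcl9l had 7.89, 12.2 and 5.93 RPKM in Ctrl and 1.74, 2.90 and 3.36 RPKM in NICeCA libraries (limma adjusted p = 0.025). Its groups did not overlap. Aes, the most abundant gene of the list at a mean of 99.2 RPKM, had -0.05 (adjusted p = 0.82). The kinases Gsk3a and Gsk3b did not pass the test at -0.05 and -0.32.

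Of 34 genes of the beta-catenin independent branch, 24 were tested, 0 were higher and 4 were lower (all rows 7.68%, median log2 fold change -0.24). None was lower (0) with the length trend removed, a replicate block or no filter, and 2 were with quantile normalization. With no filter, with trimmed mean scaling, without Ctrl replicate 3 or without NICeCA replicate 3, 1 was higher. The 4 lower genes were the polarity scaffold Scrib (-0.75), the kinase Prkca (-0.75), Invs (-0.63), which has been placed at the fork between the branches, and the ciliary polarity gene Intu (-0.54). Rhoa, the most abundant at a mean of 156 RPKM, and Cdc42 did not pass the test at 0.31 and 0.56 (adjusted p = 0.19 and 0.054 from limma).

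Of 21 transcripts that beta-catenin raises in many cell types, 11 were tested, 3 were higher (all rows 5.88%) and 1 was lower (median log2 fold change -0.67). The counts were 3 higher and 0 lower both with a replicate block and with the length trend removed, and with no filter 1 was higher and 0 were lower. Id2 (1.73), a regulator of differentiation, Jag1 (1.29), a Notch ligand, and Plaur (1.002), the urokinase receptor, rose, and each is also under other control. Plaur was the most abundant at a mean of 174 RPKM. Jag1 had 7.54, 4.93 and 8.02 RPKM in Ctrl and 17.4, 17.4 and 18.6 RPKM in NICeCA libraries, far apart (limma adjusted p = 0.011). Znrf3 fell and belongs to 2 of the lists. Apcdd1, a target that feeds back on the pathway, had -1.001 and was not called (adjusted p = 0.072). Of 14 genes tied to Wnt signaling in brain endothelium, 6 were tested, 1 was higher (all rows 5.88%) and 0 were lower (all rows 7.68%). The glucose carrier Slc2a1, the 1 called, had 32.5, 43.8 and 79.4 RPKM in Ctrl and 175, 142 and 184 RPKM in NICeCA libraries (log2 fold change 1.76, limma adjusted p = 0.021). In some experiments the study stained its protein, GLUT1, as a measure of hypoxia. The part of other control and of other cell types in the level of Slc2a1 was not tested. The tight junction gene Cldn5 had 1.25 and was not called (adjusted p = 0.094). Cldn5 and Sox17 of this list also stand in the endothelial marker list, in which all 20 estimates were positive, and the part of those markers was not tested. The list had 3 higher calls without Ctrl replicate 1 and 0 without NICeCA replicate 1 or 2. None of the genes called in these 5 lists was called in all 6 fits that left out 1 library, and Kremen1 and Pygo2 were called in none of the 6. In those fits the first 3 lists had 0 to 3, 0 to 4 and 0 to 5 lower calls, with 0 in each without NICeCA replicate 1 or 2, and the beta-catenin targets had 0 to 4 higher and 0 to 3 lower calls.

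**Figure D5:**
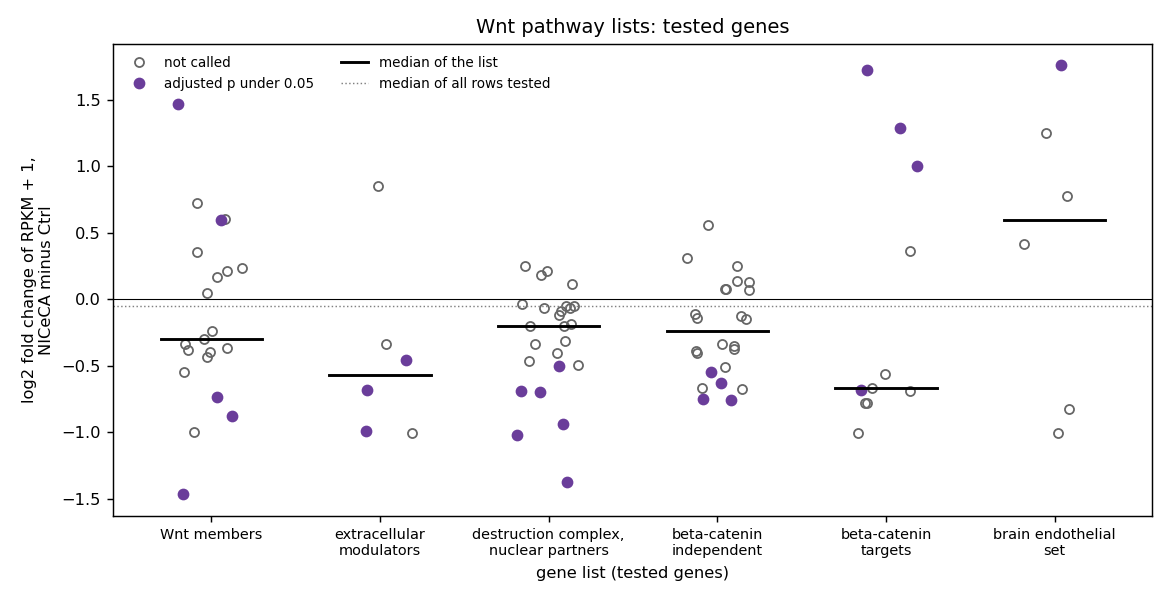
Log2 fold change of RPKM + 1, NICeCA minus Ctrl (y axis), of the tested Wnt members and of the tested genes in 5 pathway lists, with called genes filled, the median of each list as a bar and the median of all rows dotted. The 3 lists of extracellular modulators, beta-catenin partners and the beta-catenin independent branch hold filled points below 0 only.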

How the data were processed

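Bulk RNA-seq libraries of 3 Ctrl and 3 NICeCA mice were matched to columns by library label and title. The authors deposited RPKM values. The submitters' processing notes name TopHat2 and mm9, but 99.3% of rows matched by symbol overlap that gene in GRCm38, so positions are GRCm38 positions. Not given in the sources used here were the counting tool and its use of strand. Whole reads came back from RPKM and length (100.0% of values under 1000 reads, within 0.05 of a step): 39000759 to 39823498 per Ctrl and 35303191 to 37239310 per NICeCA library over all 56826 rows, which include 33353 FANTOM3 models that were not used here.

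For RefSeq rows with a mean of at least 1 RPKM, log2(RPKM + 1) was compared with limma 3.58.1 in R 4.3.3 (mean-variance trend, two-sided, Benjamini-Hochberg over 12320 rows, no block). p-values and intervals rest on the spread between 3 libraries a group. The code was tested on simulated data. Values by library are given for called members, for members with separated groups and a log2 fold change of at least 0.5, for the most abundant of each class and for Axin2, Lef1 and Tcf7. Of the lists, called genes and the most abundant are named. Other genes, and values by library of other members such as Fzd4, Tcf7l1 and those under the filter, were chosen after their values were seen. The members and lists were chosen with earlier results of these data known. Alternatives covered the pseudocount (0.1), filters, scaling, the trend, voom on recovered reads, a replicate block, single libraries left out and, added after seeing the data, removal of a trend with gene length (lowess). The labels give no batch or collection day by library.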

Additional observations from a re-analysis of the deposited data

How the results depend on the processing

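Over all rows, 725 genes were called higher and 946 lower. No filter on low values gave 260 and 105, a minimum of 5 RPKM 629 and 579, quantile normalization 446 and 325, a removed length trend (chosen after seeing the data) 590 and 206, and adjusted p under 0.1 1346 and 1992. The share of higher calls moved from 43.4% to 56% with trimmed mean scaling and 74.1% with the length trend removed. Leaving out 1 library gave 26 to 913 higher and 1 to 832 lower, lowest without NICeCA replicate 2.

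Of the Wnt members, 2 were called higher and 3 lower. A pseudocount of 0.1 left 1 higher, no filter 0 higher and 0 lower, and a minimum of 5 RPKM, which does not test Wnt11, 1 higher. Removing the length trend gave 4 higher and 1 lower, adjusted p under 0.1 7 lower, and leaving out 1 library 0 to 2 higher and 0 to 3 lower. No called member changed sign. Among members not called, Apc was 0.043 with the length trend removed, Ctnnb1 -0.14 with quantile normalization, and Lef1 ranged from -0.19 to 0.24 with 1 library left out. The filters change the number of genes tested, and the causes of these differences between settings were not tested.

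With a replicate block, 327 genes were called higher and 209 lower, and 0 Wnt members higher and 2 lower (Dkk2 and Dvl3). Libraries with the same number had correlations of 0.12, -0.34 and -0.18 between their deviations from the group means and did not all correlate best with their own number, and the labels do not tie the numbers to the pairs of mice, so the libraries share only a number. Between 27793301 and 30769916 reads per library on RefSeq rows left most Wnt ligands under 100 reads.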
